A study of Mus musculus with 13 samples.

Results

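Healthy mesenchymal stromal cells (MSCs) of the mouse are described here as 1 condition, without a contrast. They are the 3 libraries labelled as healthy and homeostatic, out of 13 libraries in the series, and every one of the 33433 gene entries of the expression table was ranked by its level in them. Healthy 1 and healthy 3 were near duplicates, so they were averaged first and then averaged with healthy 2, which leaves 2 independent samples. The other libraries are 6 labelled pre-leukemic and 4 labelled recovered, and the protocol in the labels names MSC-treated pre-leukemic mice as the third source of cells. All mice were of the C57BL/6 strain (C57BL/6J background in the protocol), and all cells were sorted from mixed nucleated cells of marrow and compact bone. The labels do not name the genotype or agent behind the pre-leukemic state, the age of the mice or the surface markers of the sort. They do not say either whether libraries came from separate or pooled animals, so the SDs below measure only the spread between these samples, which may be technical.

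MSCs are the connective-tissue cells of the skeleton that can give rise to bone, cartilage and fat cells. In marrow they lay down the extracellular matrix and secrete the chemokines and growth factors that hold and feed blood-forming cells. Their matrix is built of collagen fibrils, small proteoglycans that sit on those fibrils, and mineral-binding proteins. Surface receptors read growth factors, cytokines and contact with the matrix, and transcription factors set which of these genes are used.

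Levels are FPKM, fragment counts divided by transcript length and by sequencing depth, so they can be compared between genes of a library. The 3 healthy libraries had like sums of FPKM (613047, 626347 and 601969) and are compared directly. A mean is given ± SD over 2 samples, and values for healthy 1, 2 and 3 are given in that order. The depth, read from the steps between low values of 5240 single-transcript genes, put 1 read on a 1 kb transcript at 0.314, 0.386 and 0.354 FPKM, so a 1 kb transcript at 10 FPKM rests on about 31.8, 25.9 and 28.3 reads. The floor of 3 reads on 1 kb was 0.943 to 1.16 FPKM, which covers counting error only. Healthy 1 and 3 differed little beyond counting noise, with a chi-square per gene of 1.22 over 433 genes of 10 to 100 estimated reads (p = 0.00118) and 1.21 over 212 genes of 100 to 1000 reads (p = 0.0212). The other 23 pairs of libraries of the same group reached at least 9.77 and 21.8. A value of exactly 0 can be a failed estimate in this table, since genes such as Adnp, which encodes a nuclear protein, were at or near 0 in some libraries and at 34.5 FPKM in healthy 2. Such genes are said only to be listed at 0. Counts of them in a family have no count over all entries beside them, so they do not show whether a family is unusual.

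The RNA of healthy MSCs was concentrated in a small number of genes. The 10 most abundant genes held 14.9% of the summed FPKM, the 50 most abundant 32.2% and the 100 most abundant 43.1%. The mean reached 1 FPKM for 10789 of the 33433 entries, 10 FPKM for 5258, 100 FPKM for 801 and 1000 FPKM for 102. Among the 100 most abundant genes were 44 ribosomal protein genes, 21 genes listed as secreted products and 9 mitochondrially encoded genes. The cytoskeleton, S100, annexin and galectin group had 6, and iron, redox and lysosome function, where the secreted Gpx3 was counted, had 5. There were 4 transcription factors, 4 translation factors and chaperones and 2 surface proteins, and 5 genes were in no list. Ribosomal protein genes have many near-identical pseudogenes, so their reads may be split or shared.

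The protein-coding gene with the highest level was Mgp, which encodes matrix Gla protein, a vitamin K-dependent inhibitor of mineralisation. Mgp lies on the minus strand at chr6:136872435-136875823 (GRCm38) and stood at 12565, 15312 and 11346 FPKM (mean 13634 ± 2374). Dcn, which encodes decorin, a small proteoglycan bound to collagen fibrils, followed on the plus strand at chr10:97479609-97518143 with 11811, 12429 and 11752 FPKM (mean 12105 ± 458). Cst3, the gene of the secreted protease inhibitor cystatin C, at chr2:148871722-148875692 on the minus strand, had 11160, 10045 and 11011 FPKM (mean 10565 ± 736). These 3 secreted products thus had the highest levels of all protein-coding genes in these cells. The entry above them was mt-Ts1, a mitochondrial transfer RNA gene of 69 bases, at 14793, 19723 and 16512 FPKM, a level that rests on a very short feature.

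Below them stood housekeeping, mitochondrial, ribosomal and matrix genes. Fth1, the ferritin heavy chain that stores iron, had 8545, 9553 and 8465 FPKM, and Tpt1, a growth-associated cytosolic protein, had 5898, 6688 and 5880. The mitochondrial genes mt-Co3, mt-Co1 and mt-Rnr2 had means of 5946 ± 113, 5601 ± 502 and 5497 ± 154 FPKM. The translation elongation factor Eef1a1 stood at 5409, 5092 and 5546 FPKM and the ribosomal protein gene Rplp1 at 5714, 4763 and 5295. After these in rank came Sparc, a collagen-binding glycoprotein of bone, with 4063, 5071 and 4012 FPKM, and Prg4, the lubricin of joint surfaces and tendon, with 4874, 4097 and 4839. Both are matrix genes, and healthy 2 was the highest library for Sparc and the lowest for Prg4. The metallothioneins Mt2 and Mt1, which bind zinc and copper, stood at 4073 ± 107 and 3359 ± 97.5 FPKM. Gpx3, a secreted glutathione peroxidase, had 3963 ± 92.6 FPKM and Gsn, the actin-severing protein gelsolin, 3586 ± 111.

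Neighbours in this order were mostly too close to separate. Of the 29 neighbouring pairs among the 30 most abundant named genes, 24 were closer than their combined SD. The SD of these genes was 0.732 to 27.5% of the mean with a median of 6.6%, and Spp1 had the highest. No gene of the 30 ranked below 36 in any healthy library.

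**Figure D1:**
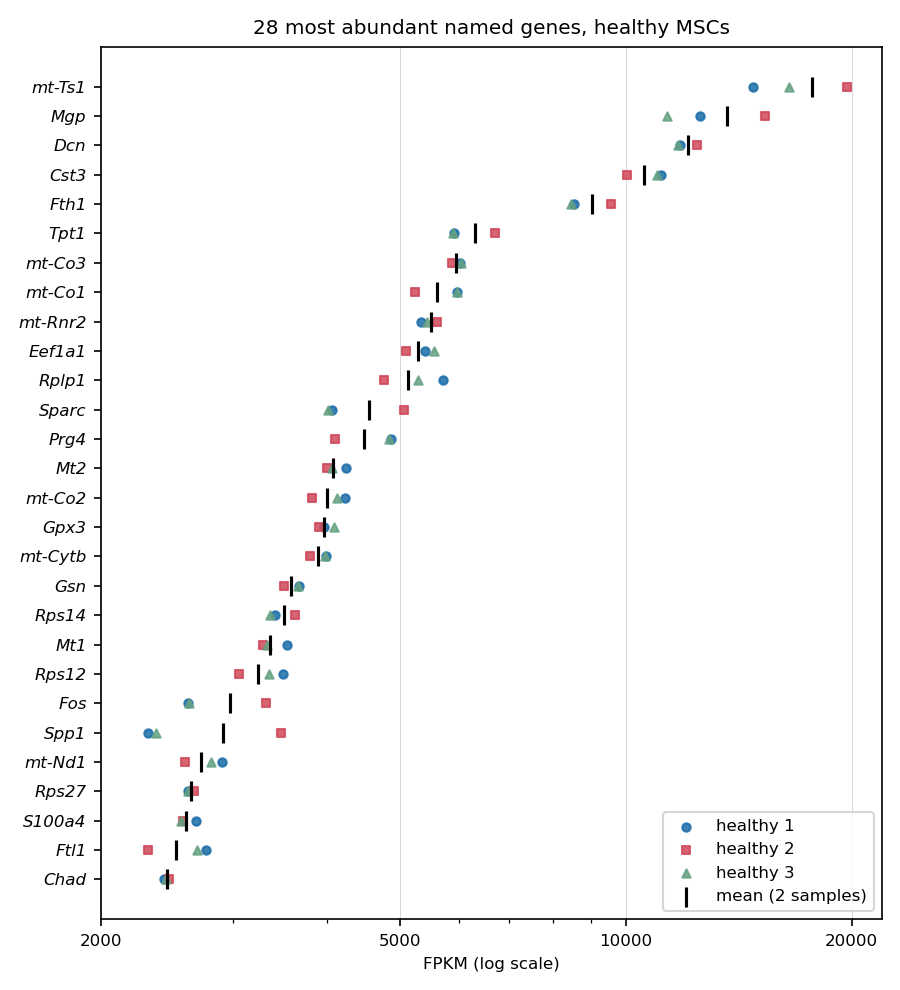
Levels of the 28 most abundant named genes in healthy MSCs, with FPKM on a logarithmic horizontal axis, 1 point per library and a bar for the mean of 2 samples. Mgp, Dcn and Cst3 stand between 10045 and 15312 FPKM in all 3 libraries, and Spp1 shows the widest gap between healthy 2 and the other libraries.

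By their longest annotated transcript, the most abundant genes were short and had few exons. That transcript need not be the one expressed, and for Rps14 and Mt1 it has 1 exon. The 100 most abundant nuclear protein-coding genes had a median longest transcript of 1314 bases and 4 exons. For the 9724 protein-coding genes at or above 1 FPKM the medians were 3336 bases and 8 exons. Of the 100, the 47 ribosomal protein genes had a median of 1043 bases and the other 53 of 1809. FPKM divides by length, and the part of this in the ranking was not tested. The promoters of the 100 genes held the letters TATAA in the 40 to 16 bases before the transcription start more often than the promoters of expressed genes in general. On the gene strand TATAA was there in 12 of the 74 genes with an entry in the sequence table (16.2%, Wilson 95% interval 9.53 to 26.2%). It was in 2.72% of the 7731 expressed protein-coding genes with an entry, a gene counting once if any of its promoters matched. Of all 32851 promoters, counted singly, 3.52% held it. By class, 11.7% of expressed secreted genes and 11.8% of the 50 most abundant of them with an entry held it. For transcription factors it was 5.11 and 10.3%, and for receptors 2.38 and 2.86%. The part of gene class was not tested. Shown here, because they belong to the 7 most abundant genes outside the ribosome that carry these letters, are the 50 bases upstream of the start, 5′ to 3′ on the gene strand, from RefSeq on GRCm38.p6. Capitals mark the TATAA match.
Fos (plus strand, chr12:85473840-85473889): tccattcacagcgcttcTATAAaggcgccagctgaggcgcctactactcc
S100a4 (plus strand, chr3:90603720-90603769): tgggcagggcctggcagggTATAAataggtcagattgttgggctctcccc
Chad (plus strand, chr11:94564997-94565046): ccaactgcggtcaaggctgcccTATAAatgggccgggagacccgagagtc
Vim (plus strand, chr2:13574261-13574310): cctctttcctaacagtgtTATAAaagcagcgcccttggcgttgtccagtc
Id3 (plus strand, chr4:136143772-136143821): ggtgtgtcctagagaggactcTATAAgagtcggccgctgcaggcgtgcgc
Myoc (plus strand, chr1:162639100-162639149): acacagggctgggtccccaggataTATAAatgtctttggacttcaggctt
Ecm1 (minus strand, chr3:95739570-95739619): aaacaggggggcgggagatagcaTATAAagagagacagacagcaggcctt

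These 7 genes have unlike roles. S100a4 had 2673, 2574 and 2551 FPKM in the 3 libraries and Vim 2479, 1937 and 2427. Fos and Id3 are transcriptional regulators, S100a4 a calcium-binding protein, Vim the intermediate filament vimentin, and Chad, Myoc and Ecm1 encode secreted proteins. Mgp, Dcn, Prg4 and several ribosomal protein genes had no entry in the sequence table. A match gives letters in a window, not a site that was shown to work.

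A run of at least 8 pyrimidines within 20 bases of the start is typical of ribosomal protein genes. It was found in 23 of the 74 genes with an entry (31.1%), with a gene again counted once. It was in 51.5% of the 33 ribosomal protein genes among them and in 14.6% of the 41 others. Of expressed genes 19.7% had it, and of all promoters, counted singly, 16%. GGGCGG on either strand was in 55.4% of the 74 and 66.1% of the expressed genes, and CCAAT on either strand in 36.5 and 40.3%. Cxcl12, the chemokine of the blood stem cell niche, is shown for contrast because its upstream bases hold no TATAA in that window but repeats of CCGCCC, the reverse complement of GGGCGG, of which the match farthest from the start is in capitals.
Cxcl12 (plus strand, chr6:117168485-117168534): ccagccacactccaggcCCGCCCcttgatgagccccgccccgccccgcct

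Listed secreted products held 16.4% of the summed FPKM of healthy MSCs, with 16.1, 16.7 and 16.1% in the 3 libraries. Gpx3 was listed with the redox genes and Myoc in no family. Both encode secreted proteins, and this share leaves them out. Of the 655 listed genes of secreted products, 341 reached 1 FPKM, 239 reached 10 and 96 reached 100, while 243 were listed at 0 in every healthy library. Over nuclear protein-coding genes, 9724 of 19465 reached 1 FPKM. Bone matrix and mineral proteins were the largest family with 3.84 ± 0.56% of the sum, of which Mgp alone made 57.5%. The small leucine-rich proteoglycans followed with 3.06%, of which Dcn made 64.1%, and the protease inhibitors with 2.43 ± 0.17%, of which Cst3 made 70.4%. Each of the leading families thus owed most of its share to 1 gene.

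**Figure D2:**
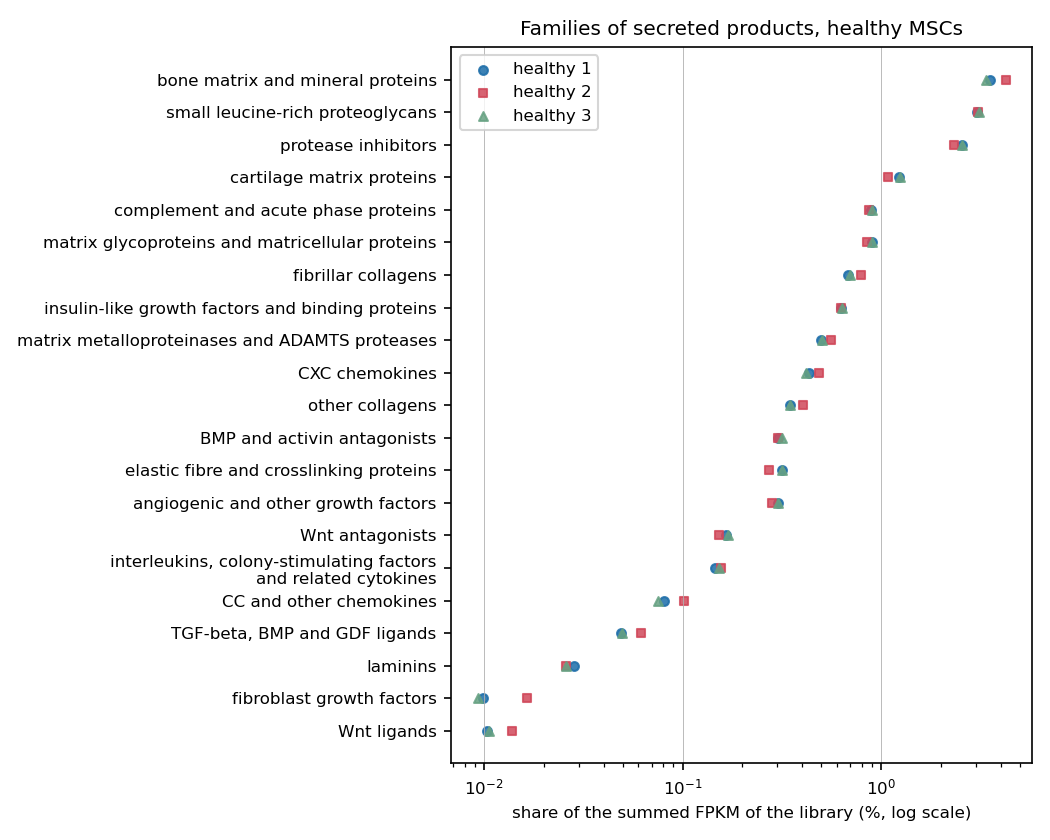
Share of the summed FPKM held by each family of secreted products, in percent on a logarithmic axis, with 1 point per healthy library. Bone matrix proteins, small leucine-rich proteoglycans and protease inhibitors each hold more than 2% in all 3 libraries, and Wnt ligands and fibroblast growth factors hold less than 0.02%.

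Bone matrix genes were abundant but not uniformly so. Spp1, the osteopontin of bone and many other tissues, had 2312, 3469 and 2367 FPKM, and Ibsp, bone sialoprotein, had 1354, 1433 and 1347. Both bind integrins and mineral. The osteocalcin genes Bglap and Bglap2, made by mature osteoblasts, were far lower, with 66.4, 18.4 and 84.1 FPKM for Bglap and 138, 93.2 and 114 for Bglap2. These 2 genes are near-identical copies, so reads may be split between them. Dmp1, a gene of osteocytes, had a mean of 5.33 ± 4.39 FPKM, and Mepe and Sost, also of osteocytes, were listed at 0 in all 3 libraries.

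Collagen RNA was led by the fibril-forming chains. Col1a2 had 1388, 1672 and 1383 FPKM, Col3a1 1293, 1643 and 1295, and Col1a1 995, 1070 and 1029. All 11 fibrillar collagen genes reached 1 FPKM, and together they held 0.74 ± 0.072% of the sum. Of the 29 other collagen genes, 17 reached 1 FPKM. Col12a1, whose product decorates type I fibrils, led them with 904, 1028 and 893 FPKM, followed by Col16a1 (409 ± 135) and Col6a3 (275 ± 46.1). Healthy 2 was the highest library for each of the 3 leading fibrillar chains.

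Of the 11 small leucine-rich proteoglycans at or above 10 FPKM, 1, Kera, differed by more than 2-fold between healthy 2 and the mean of healthy 1 and 3. Of all genes at that level, 20.5% did. Chad, chondroadherin, had 2426, 2459 and 2441 FPKM, Bgn, biglycan, 1095, 1131 and 1158, and Prelp 955, 894 and 959. Fmod, fibromodulin, had 726 ± 26.3 and Lum, lumican, 715 ± 56.5 FPKM. Of the 16 small leucine-rich proteoglycans, 15 reached 1 FPKM and 9 reached 100. Among the matrix glycoproteins, Ecm1 stood at 1278 ± 32.6 FPKM, Fn1, fibronectin, at 1118 ± 51.6, and Pcolce, which speeds the trimming of procollagen, at 654 ± 5.99. Elastic fibre genes were lower, led by Mfap5 at 383 ± 1 and Fbln2 at 271 ± 2.05 FPKM. Of their 19 genes at or above 10 FPKM, 4 were more than 2-fold lower in healthy 2 and 0 higher. Over all 5258 genes at that level, 446 were lower and 631 higher (20.5% in either direction). Laminins, the sheet-forming proteins of basement membranes, held only 0.0265% of the sum, and Lamc1 was the highest of them at 56.9 ± 4.76 FPKM.

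Genes of cartilage and tendon matrix were prominent beside those of bone. After Prg4 came Thbs4, a thrombospondin of tendon, with 825, 649 and 812 FPKM, Comp with 660, 606 and 647, and Cilp with 602, 583 and 566. Cytl1, a secreted protein of cartilage, had 443, 655 and 459 FPKM. The core genes of hyaline cartilage were much lower. Col2a1 had 35.7, 60.8 and 31.7 FPKM, Acan 3.94, 1.93 and 3.95, and Col10a1 and Matn1 were listed at 0.

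Several of these genes are neighbours on their chromosome, and neighbours differed widely in level. Dcn, Lum, Kera and Epyc are the only protein-coding genes in chr10:97479609-97682454 (GRCm38), where the means were 12105, 715, 10.7 and 8.43 FPKM. Kera, keratocan, had 22.3 and 20.5 FPKM in healthy 1 and 3 and was listed at 0 in healthy 2. At chr13:49504810-49624501, Ecm2, Aspn, Omd and Ogn had means of 40.1, 278, 228 and 248 FPKM. Optc, Prelp and Fmod at chr1:133897199-134048277 had means of 0.533, 925 and 726. In the bone phosphoprotein cluster at chr5:104170712-104441050, Ibsp and Spp1 had 1392 and 2904 FPKM and Dmp1 5.33, while Dspp and Mepe were listed at 0. Of the metallothioneins at chr8:94137197-94180327, Mt2 and Mt1 were among the 20 most abundant genes and Mt3 and Mt4 were listed at 0. Within 4 of the 5 clusters, then, genes above 700 FPKM lay beside genes under 11 FPKM or listed at 0, and the cluster of Aspn, Omd and Ogn held none of these.

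Enzymes that cut matrix and their inhibitors were both well represented. Mmp13, a collagenase, had 656, 824 and 664 FPKM, Mmp2, a gelatinase, 672, 695 and 652, and Mmp14, which activates Mmp2, 232, 412 and 235. Of the 54 proteases of this family, 30 reached 1 FPKM. The metalloproteinase inhibitors Timp2 and Timp1 had 845 ± 136 and 657 ± 38.9 FPKM. These 2 inhibitors thus stood at levels like those of Mmp13 and Mmp2. Serpinf1, the anti-angiogenic protein PEDF, had 1726, 1408 and 1745. Of 103 protease inhibitor genes, 23 reached 1 FPKM, beside 9724 of 19465 nuclear protein-coding genes, and 71 were listed at 0 in every healthy library.

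Among chemokines, Cxcl1, an attractant of neutrophils, was the highest with 2136, 2319 and 1991 FPKM, and it made 77.6% of the CXC family's sum. Cxcl12, which retains blood stem cells in marrow through the receptor CXCR4, had 369, 508 and 372 FPKM (439 ± 97.1). In the CC family, Ccl2, an attractant of monocytes, had 229, 414 and 225 FPKM, and Ccl7, a relative with similar targets, had 209, 145 and 185. Healthy 2 was the highest library for Ccl2 and the lowest for Ccl7. Of 23 CC and other chemokines, 8 reached 1 FPKM, beside 9724 of 19465 nuclear protein-coding genes, and 11 were listed at 0 in all 3 libraries.

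Most cytokine genes stayed below 1 FPKM, as did most entries of the table. Of 74 interleukins, colony-stimulating factors and related cytokines, 22 reached 1 FPKM. Over all entries it was 10789 of 33433, and over nuclear protein-coding genes 9724 of 19465. Of the 74, 43 were listed at 0 in every healthy library. Grn, progranulin, had 346, 396 and 350 FPKM and Il6, an inflammatory cytokine also made by stroma, had 174, 151 and 191. Kitl, the ligand of Kit on blood stem cells, was low, with 4.48, 0.841 and 5.84 FPKM. In healthy 2, Kitl lay under the floor and so rested on fewer than 3 reads per kb of transcript.

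Growth factor RNA was outweighed by that of binding proteins and antagonists. Igfbp6 and Igfbp7, which bind insulin-like growth factors or relatives of them, had 1615 ± 72.6 and 1434 ± 52.9 FPKM, beside 250 ± 61.9 for Igf2. Nbl1, an antagonist of bone morphogenetic proteins, had 1112, 1067 and 1119 FPKM, and Fstl1 605 ± 70. The highest ligand of the TGF-beta and BMP family was Bmp4 with 83.5, 113 and 84.4 FPKM, and none of the 33 reached a mean of 100. The same held for Wnt signalling. Sfrp4, a secreted Wnt antagonist, had 509, 537 and 501 FPKM, Sfrp2 238 ± 43 and Wif1 140 ± 27.4, while the highest Wnt ligand, Wnt5b, had 20.6, 35.5 and 23.3. As families, BMP and activin antagonists held 0.306% of the sum against 0.0554% for the TGF-beta, BMP and GDF ligands, and Wnt antagonists held 0.16% against 0.0122% for Wnt ligands. These orders were the same in all 3 healthy libraries.

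Other growth factors were led by Angptl7, an angiopoietin-like protein, with 842, 614 and 793 FPKM. Penk, the precursor of enkephalin peptides, had 253, 209 and 272 and Gas6, the ligand of Axl and its relatives, 128, 154 and 125. Of the 22 fibroblast growth factors, 6 reached 1 FPKM, with Fgf9 at 21.6, 65.2 and 20.3 and Fgf18 at 24.8, 22.8 and 21.8. Complement and carrier proteins held 0.877% of the sum, led by the extracellular chaperone Clu (1354 ± 263 FPKM), the lipid carrier Apod (1135 ± 25.8) and Serping1 (899 ± 3.07), the inhibitor of the first complement proteases.

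Receptors and surface proteins held 1.86% of the summed FPKM, with 1.92, 1.81 and 1.91% in the 3 libraries. Of 565 listed genes, 234 reached 1 FPKM, 122 reached 10 and 20 reached 100, and 225 were listed at 0 in every healthy library. Over nuclear protein-coding genes, 9724 of 19465 reached 1 FPKM. The highest were small membrane proteins and not signalling receptors. The tetraspanin Cd9 had 1387, 1198 and 1341 FPKM, and Ly6a, known as Sca-1 and used to sort mouse MSCs and blood stem cells, had 1390, 1103 and 1382. Ly6c1, a close relative of Ly6a, had 914, 714 and 876, and the tetraspanins Cd63 and Cd81 had 666 ± 163 and 467 ± 1.92. Healthy 2 was the lowest library for Cd9, Ly6a, Ly6c1 and Cd63. Sdc4, a heparan sulfate proteoglycan of the membrane, had 574, 585 and 552 FPKM, and Pdpn, podoplanin, 365, 367 and 358.

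Among signalling receptors, the highest was Il11ra1, the receptor of interleukin 11, with 326, 373 and 296 FPKM. Its signalling partner Il6st had 45.2, 57.7 and 45.9, and Ifngr1, a chain of the interferon gamma receptor, 104, 140 and 99.2. From the TNF receptor family came Tnfrsf12a with 173, 196 and 161 FPKM and Tnfrsf1a with 139, 219 and 140. Ramp2, a partner of the calcitonin receptor-like receptor, was the leading gene of the G protein-coupled group with 186, 242 and 183 FPKM. In that group, 52 of 227 genes reached 1 FPKM, beside 9724 of 19465 nuclear protein-coding genes, and 141 were listed at 0 in every healthy library.

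Of the receptor tyrosine kinases, Fgfr1 had 124, 170 and 116 FPKM, Axl 154, 84.5 and 147, and Pdgfrb 51.5, 57.2 and 49.9. Axl was thus lowest in healthy 2 and Fgfr1 highest there. Pdgfra, another receptor of platelet-derived growth factors and a marker of MSCs, had 34, 44.2 and 34.7 FPKM. Lepr, the leptin receptor that marks perivascular marrow stroma, had 23, 26.3 and 22.2, and Pth1r, the receptor of parathyroid hormone, 43.1, 46.2 and 45.2. The leading integrin chain was Itgb5 (163 ± 0.145 FPKM), followed by Itgb1 (85.8 ± 14.3). Itgav, the partner of Itgb5, had 32.3, 94.1 and 28.3 FPKM, so healthy 2 stood apart for it. The leading Wnt receptor genes were Lrp1, also a scavenger receptor, at 75.4 ± 17.1 FPKM and Fzd8 at 58.6 ± 2.42. All 15 TGF-beta and BMP receptor genes were above 0 in at least 1 library, and the highest was the co-receptor Tgfbr3 with 40.2 ± 9.73.

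**Figure D3:**
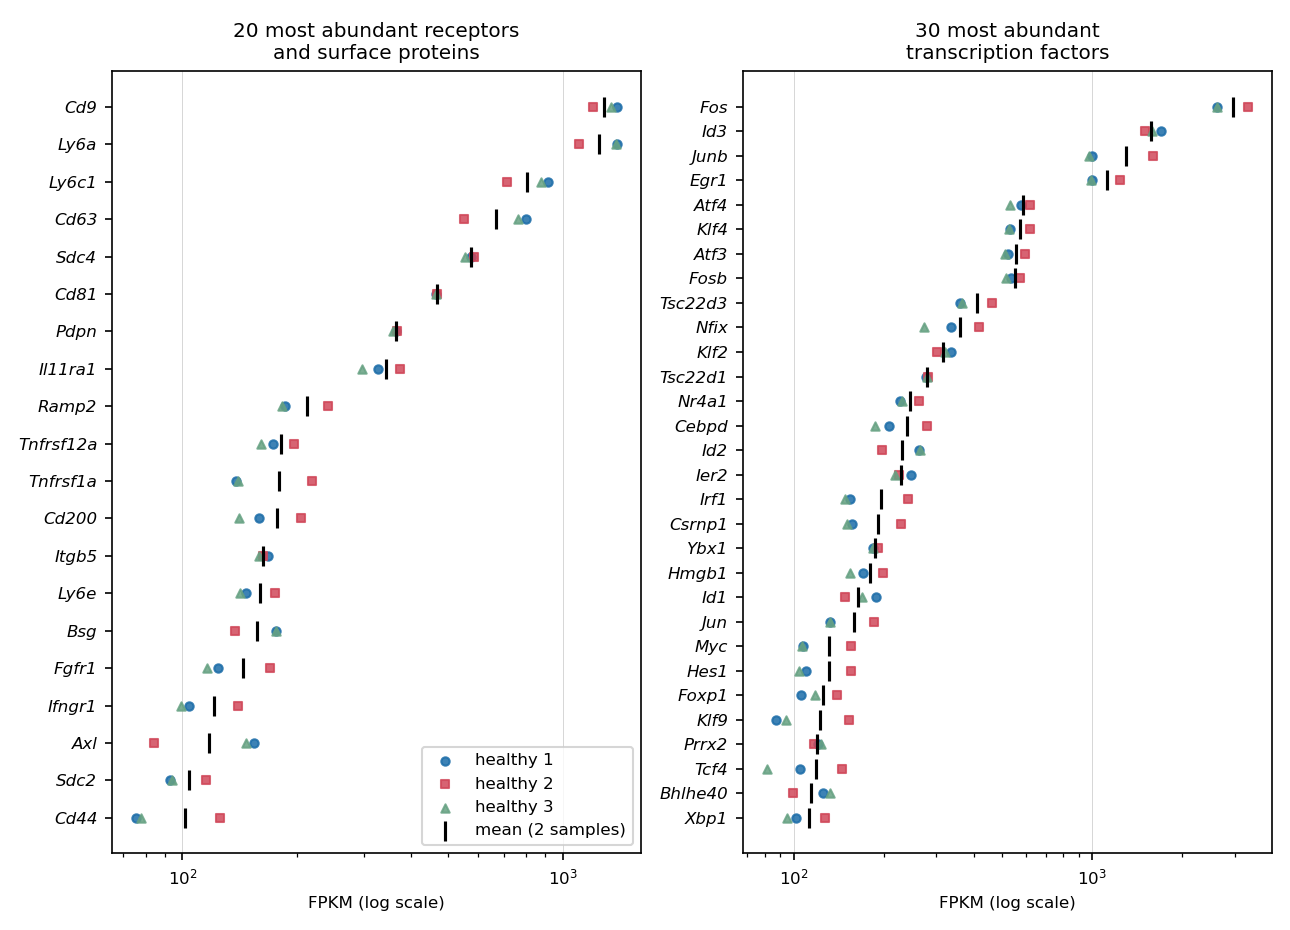
Levels of the 20 most abundant receptors and surface proteins (left) and the 30 most abundant transcription factors (right) in healthy MSCs, with FPKM on logarithmic axes, 1 point per library and a bar for the mean of 2 samples. Healthy 1 and 3 lie close together for most genes, and healthy 2 is the highest library for Fos, Junb and Egr1 and the lowest for Cd9, Ly6a and Cd63.

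Transcription factors held 3.03% of the summed FPKM, with 2.82, 3.23 and 2.81% in the 3 libraries. Of 544 listed genes, 326 reached 1 FPKM, 164 reached 10 and 32 reached 100. Immediate early genes, which cells switch on within minutes of a stimulus, stood at the top. Fos had 2610, 3317 and 2615 FPKM, Junb 996, 1599 and 975, and Egr1 997, 1237 and 988. Atf3 and Fosb had 554 ± 54.9 and 549 ± 34.9, and Nr4a1 246 ± 25.1. Jun, the partner of Fos in the AP-1 dimer, was lower with 132, 186 and 132. For Fos, Junb, Egr1, Atf3, Fosb, Nr4a1 and Jun, healthy 2 was the highest of the 3 libraries. The AP-1, ATF and CREB family alone held 1.08 ± 0.16% of the sum.

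Id3, which blocks the DNA binding of basic helix-loop-helix factors, had 1693, 1504 and 1582 FPKM, above Id2 (230 ± 46.2) and Id1 (164 ± 21.6). Atf4, a factor of the amino acid stress response, had 578, 620 and 532. The Kruppel-like factors Klf4 and Klf2 had 572 ± 63.4 and 315 ± 19.5 FPKM. Tsc22d3, known as GILZ and induced by glucocorticoids, had 359, 462 and 365, and Cebpd 209, 280 and 187. Nfix, a nuclear factor I protein, had 337, 416 and 273.

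Factors of skeletal and stromal identity stood lower than the leading immediate early genes. Prrx2 and Prrx1, homeobox factors of limb and skull mesenchyme, had means of 119 ± 3.46 and 98.9 ± 35.5 FPKM, and Prrx1 was highest in healthy 2. Twist1, a factor of mesenchyme, had 63.5, 82.5 and 58.4, and Dlx5, a homeobox factor of bone, 73.1, 58.8 and 68. Sox9, the master factor of cartilage, had 37.1, 46.9 and 38.1 FPKM, Scx, a factor of tendon, 34.9, 27.4 and 33.5, and Runx2, the master factor of bone, 14.9, 33.3 and 13.1. Sp7, which acts after Runx2, had 17.1, 8.52 and 15.1. Runx2 was thus highest and Sp7 lowest in healthy 2. Ebf1 and Foxc1, factors of marrow stroma, had 36.1 ± 10 and 20.8 ± 10.2, and Pparg, the master factor of fat cells, had 0.906 and 1.21 FPKM in healthy 1 and 3 and was listed at 0 in healthy 2.

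The label of the cells was checked against lists of marker genes. Of 26 genes of MSCs, 23 reached 1 FPKM and 18 reached 10, with a median of 37.7. Cd200 had 159, 205 and 141 FPKM, Cd44, the hyaluronan receptor, 75.5, 126 and 78, Thy1 66.1, 81.5 and 79.4, and Vcam1 45.1, 51.4 and 43.8. Nes, the intermediate filament nestin used to mark some marrow MSCs, was listed at 0, and Ngfr and Grem1 had means of 0.734 and 0.331. Of 15 genes of tendon and fibroblasts, all 15 reached 1 FPKM, among them Tnmd, a membrane protein of tendon, at 102, 67.4 and 111. For osteoblasts 17 of 21 genes reached 1 FPKM, for chondrocytes 16 of the 19 in the table, and for smooth muscle and pericytes 9 of 12. The libraries therefore held RNA of markers of several connective-tissue lineages, and bulk libraries do not show whether these come from the same cells.

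Fat cell genes were split. Adipoq, a hormone made by fat cells and by marrow stroma, had 47.3, 57.9 and 45.8 FPKM and Lpl, lipoprotein lipase, 70, 70.7 and 67.3, while Plin1, Cidec and Lep were listed at 0. Most markers of endothelium were near or under the floor. Of 15, 3 reached 1 FPKM, namely Egfl7, Plvap and Flt1 with means of 5.72, 5.46 and 1.71. Cdh5 was listed at 0 in healthy 1 and 2, and the summed level of the list was 18.8, 13 and 14.3 FPKM. The muscle list summed to 4.96, 1.16 and 16.6 FPKM, and the 7 genes of mast cells and basophils were all listed at 0.

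**Figure D4:**
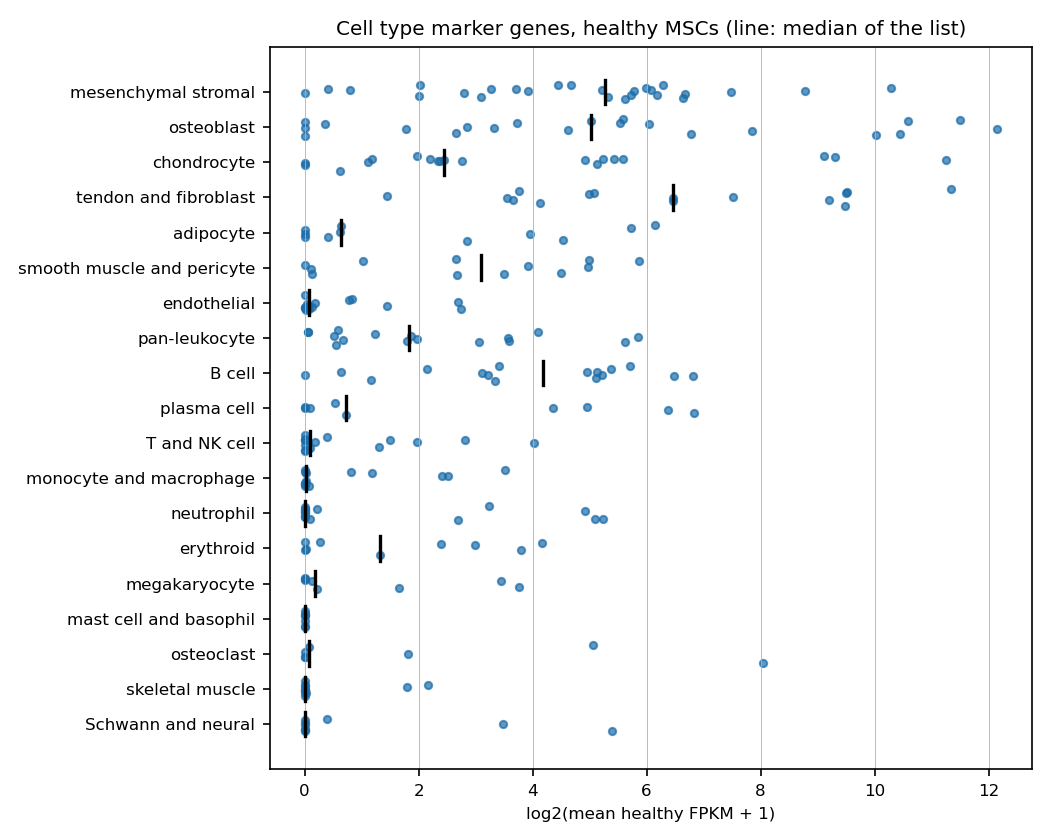
Mean level of each marker gene in healthy MSCs, as log2(FPKM + 1), for 19 lists of cell type markers, with a line at the median of each list and points spread vertically only to be visible. The tendon and fibroblast, MSC and osteoblast lists have the highest medians, and the endothelial, mast cell and muscle lists have medians near 0.

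Blood cell genes were present at uneven levels, low for most lists. Of 16 genes shared by leukocytes, 10 reached 1 FPKM and the list summed to 149, 176 and 147 FPKM, with Arhgdib at 49, 68.2 and 41 and Cd52 at 34.9, 59.7 and 39.4. Ptprc, the common leukocyte antigen CD45, had 0.592, 0.0798 and 1.25 FPKM and Itgb2 a mean of 0.0362. Genes of B cell precursors stood higher. Vpreb3 had 96.9, 130 and 88.6 FPKM, Igll1 89.6, 87.5 and 88.5, Vpreb1 46.9, 53.9 and 51.2, and Cd79a 34.2, 35.1 and 31.5, while Ms4a1, the CD20 of later B cells, was listed at 0. The B cell list, which also holds the stromal factor Ebf1, summed to 441, 495 and 428 FPKM, and 14 of 16 reached 1. Its median of 19.8 FPKM lay between those of the chondrocyte list (4.44) and the osteoblast list (31.6). Primary granule genes of myeloid precursors were present too, with Mpo at 44.8, 30.1 and 41.9, while 8 of the 15 genes of the neutrophil list were listed at 0 in all 3 libraries, among them S100a9, Ngp, Camp and Ltf of later neutrophils. S100a8, the partner of S100a9, had a mean of 5.44 ± 7.69 FPKM and the protease gene Mmp9 8.36. Ctsk, the collagen-cutting cathepsin K of osteoclasts and fibroblasts, had 277, 254 and 265, and Acp5, the acid phosphatase of osteoclasts, 18.9, 47.8 and 15.3. Atp6v0d2, a proton pump subunit, had a mean of 2.52, and the osteoclast genes Oscar, Dcstamp and Calcr were listed at 0. Of the other lists, 5 of 15 genes of T and NK cells reached 1 FPKM, 4 of 14 of monocytes and macrophages, 4 of 9 of plasma cells, 5 of 15 of neutrophils, 5 of 9 of red cell precursors, 3 of 8 of megakaryocytes, 3 of 7 of osteoclasts and 2 of 9 of Schwann and neural cells. The part of these cells in the levels above was not tested.

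Healthy 2 differed from the mean of healthy 1 and 3 most among weakly expressed genes. By more than 2-fold on the log2(FPKM + 1) scale, 1425 genes were higher and 2112 lower in healthy 2 among the 10789 with a mean of at least 1 FPKM (32.8%). Of the 5258 genes at or above 10 FPKM it was 631 and 446 (20.5%), and of the 801 at or above 100 FPKM 12 and 9 (2.62%). The 2 samples were thus much closer for strongly than for weakly expressed genes. With 2 samples there is no replicate error for such a difference, so none was tested.

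Between healthy 1 and 3 the same limit was passed by 124 genes higher and 151 lower in healthy 3 of the 10789 (2.55%). Some genes of moderate level were nearly missing from healthy 2 or from healthy 1 and 3. Ipo4, a nuclear import receptor, had 116 and 98.8 FPKM in healthy 1 and 3 and 1.31 in healthy 2. Il15ra, the interleukin 15 receptor chain, had 36.6 and 35 FPKM and was listed at 0 in healthy 2, as were Nmb, a neuropeptide gene (38.7 and 38.9), and Gstm2, a glutathione transferase (45.4 and 45). In the opposite direction stood Amdhd2, an enzyme of amino sugar metabolism, with 9.59, 65.2 and 11.7 FPKM, and Chic2 with 8.41, 58.6 and 7.84. At a mean of at least 10 FPKM, 27 genes were listed at 0 in healthy 2 with a mean of 10 FPKM or more in healthy 1 and 3, of which 11 were protein-coding. In the opposite direction it was 10 genes, of which 0 were protein-coding, but this needs a 0 in both healthy 1 and 3 and so is the stricter condition. Among listed classes at that level, 19 of 239 secreted products were more than 2-fold higher in healthy 2 and 9 lower, 12 of 122 receptors higher and 7 lower, and 13 of 164 transcription factors higher and 5 lower. Over all 5258 genes at that level, 631 were higher and 446 lower.

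**Figure D5:**
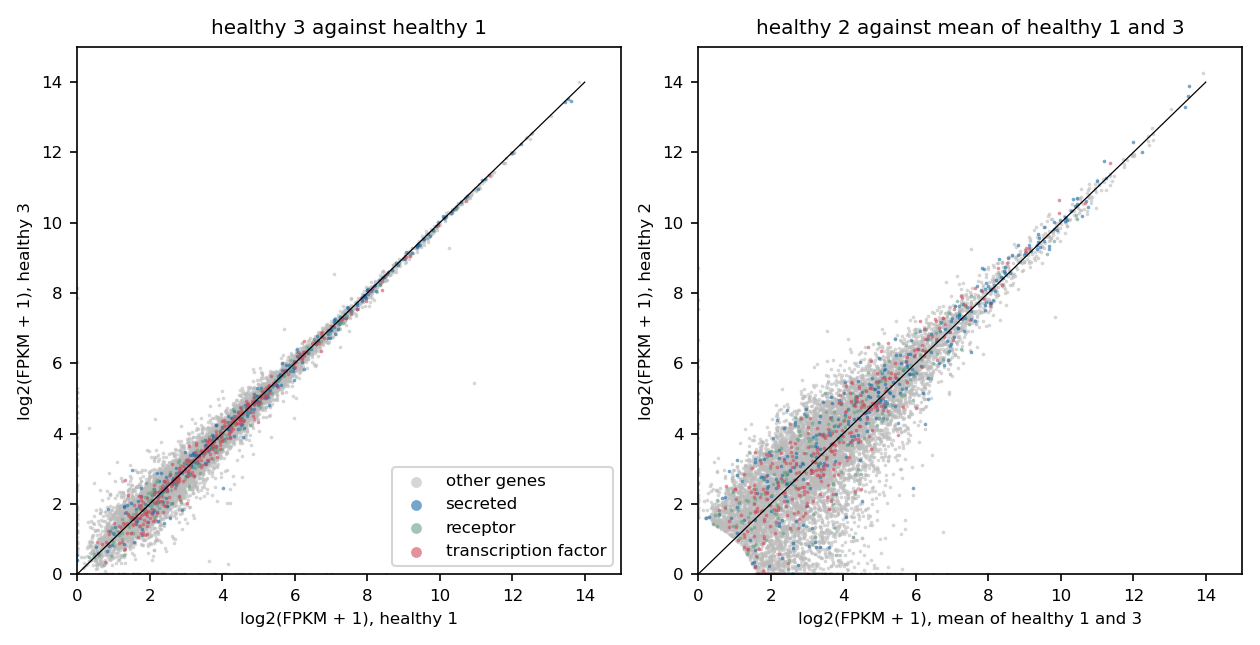
Levels as log2(FPKM + 1) of genes with a mean of at least 1 FPKM, for healthy 3 against healthy 1 (left) and healthy 2 against the mean of healthy 1 and 3 (right), with a line of equality. Between healthy 1 and 3, 2.55% of the genes differ by more than 2-fold, against 32.8% for healthy 2 and their mean, and the genes absent at the lower left were removed by the limit of 1 FPKM on the mean.

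Values of leading healthy genes in the remaining libraries are set beside the healthy ones as a description, and no difference was tested. The deposited FPKM summed to 601969 to 626347 in the healthy libraries, 624511 to 842529 in the recovered and 1225061 to 2986391 in the pre-leukemic ones, so the 3 groups are not on the same scale, and each gene is given as FPKM and as its share of the summed FPKM of the library. Mgp ranged from 22 to 532 FPKM (median 186) in the 6 pre-leukemic and from 7391 to 13426 (median 8834) in the 4 recovered libraries. Its share was 1.88 to 2.44% in the healthy libraries, between 0.00175 and 0.0434% in pre-leukemic ones and between 1.18 and 1.59% in recovered ones. The healthy and recovered values of Mgp thus overlapped as FPKM and not as shares, and the pre-leukemic values lay below both on either scale. Dcn ranged from 193 to 779 FPKM (median 591) in pre-leukemic and from 3830 to 6383 (median 5315) in recovered libraries, all below the healthy values, and this order was the same for its shares. Cd9 ranged from 64.4 to 193 FPKM (median 104) and from 828 to 1247 (median 1046), and the recovered FPKM overlapped the healthy values while the recovered shares, 0.133 to 0.162%, lay below the healthy 0.191 to 0.226%.

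For Ly6a and Fos the reading turned on the scale. The plasma cell list made up 4.6 to 60.9% of the sum in pre-leukemic libraries (median 54.1%), which lowers the share of every other gene there. Shares without that list were not computed. Ly6a was at 3150 to 6375 FPKM (median 5373) in pre-leukemic and 1922 to 2580 (median 2398) in recovered libraries, above all 3 healthy libraries as FPKM. As a share it was 0.176 to 0.23% in the healthy libraries, between 0.17 and 0.52% in pre-leukemic ones and between 0.228 and 0.381% in recovered ones, so the ranges overlapped. Fos was at 1928 to 3141 FPKM (median 2377) in pre-leukemic libraries, overlapping the healthy values, and at 572 to 1499 (median 1183) in recovered ones. As a share, Fos was at 0.426 to 0.53% in the healthy libraries, between 0.0888 and 0.167% in pre-leukemic ones and between 0.0679 and 0.221% in recovered ones, with both other groups below the healthy libraries.

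Of the 100 most abundant genes of healthy MSCs, 49 to 54 were also among the 100 most abundant of each pre-leukemic library and 77 to 83 of each recovered library. For healthy 1, 2 and 3 themselves it was 97, 96 and 98. Of these 100 genes, 44 are ribosomal protein genes and 9 mitochondrially encoded. The count does not depend on the scale of a library, but it does on which other genes fill its top ranks. Blood cell lists differed between the groups, and not all in the same direction. The leukocyte list held 0.0243 to 0.0281% of the sum in the healthy libraries, between 0.116 and 0.272% in pre-leukemic ones and between 0.012 and 0.0351% in recovered ones. The B cell list held 0.0711 to 0.0791%, 0.205 to 3.56% and 0.0338 to 0.153%. The plasma cell list, which holds the immunoglobulin kappa constant gene, made up 0.0319 to 0.0463% in the healthy libraries, between 4.6 and 60.9% in pre-leukemic ones (median 54.1%) and between 0.0224 and 0.12% in recovered ones. The part of these cells in the values above was not tested. In bulk libraries, fewer cells of a type and less RNA per cell cannot be told apart.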

How the data were processed

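Polyadenylated RNA of sorted MSCs was reverse transcribed with a published procedure, and libraries came from a Nextera XT kit, per the labels' protocols. The authors deposited 1 table of FPKM values, made with bcl2fastq, TopHat, Cufflinks 2.2.1 and Cuffnorm on mm10, per the submitters' processing notes. For the library-size method and annotation: not given in the sources used here. No read counts were used, so depth was estimated from steps between low FPKM values of single-transcript genes of at least 800 bases, within 0.06 on the log2 scale. This step was tested on simulated data.

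Symbols of 32082 of 33433 entries matched GENCODE M21 (GRCm38), the source of coordinates, lengths and exons, and promoters are from RefSeq. Genes were assigned to 49 functional families and 19 marker lists. The members, lists and rules were chosen with earlier results of these data known, and the family patterns were tidied after the table was seen. Named genes were the 30 most abundant, the 30 leading secreted products, 20 receptors and 30 transcription factors, up to 4 leading members per family, the 15 largest differences of healthy 2 in each direction at or above 10 FPKM, and the markers. Members of the genomic clusters and genes shown for their promoter letters were added after their values were seen. No comparison between groups was tested. Alternatives were the plain mean of 3 libraries, leaving out each library, the TPM scale, the geometric mean, protein-coding symbols only, other limits and pseudocounts, and other sizes of the top list. Summaries used pandas 2.3.3 and numpy 2.4.6, intervals scipy 1.17.1 and plots matplotlib 3.10.9, in Python 3.11.15.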

Additional observations from a re-analysis of the deposited data

How the results depend on the processing

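Averaging the 3 libraries as separate samples, or leaving out healthy 1, 2 or 3 in turn, left the shares of the top genes and of the 3 classes within their SD. The counts of genes stayed within 1.5 times the main count, a fixed limit and not a measured spread. With the plain mean or without healthy 2, a level cannot move beyond an SD taken from the same 2 samples, and a share hardly can. These 2 settings are therefore no check of the levels or of the shares. Leaving out healthy 1 or healthy 3 each moved 17 of 483 levels of named genes and 5 of 49 family shares by more than their SD. On the TPM scale 306 of the 483 levels moved by more than their SD. Rescaled to equal sums (TPM scale), 1223 genes reached 100 and 168 reached 1000, since the deposited sums are 601969 to 626347. With the geometric mean the 50 and 100 most abundant genes held 32.7 and 43.9%. Without ribosomal protein, mitochondrial and non-coding entries, the 10, 50 and 100 most abundant held 17.1, 32.4 and 40.8%, 48 genes reached 1000 FPKM, secreted products held 23%, receptors 2.63% and transcription factors 4.3%, and 42% of the 50 most abundant genes were kept, by construction of that setting. Set against healthy as shares of the summed FPKM, an alternative chosen after seeing the data, 9 of 18 ratios of a group's median to the healthy mean moved by over 1.5 times, all pre-leukemic. That of Ly6a went from 4.32 to 0.96 and that of Fos from 0.802 to 0.249. The plasma cell list made up a median of 54.1% of the pre-leukemic sums, which lowers these shares. Differences of more than 2-fold in healthy 2 numbered 1077 at a mean of at least 10 FPKM, against 3537 at 1. With all protein-coding genes of the table as background, TATAA was in 4.93% and the pyrimidine tract in 18.5% of genes with a promoter entry.

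No paired analysis was possible because no result comes from a test between groups. With 2 independent samples the SD is itself imprecise, levels under about 1 FPKM rest on about 3 reads per kb or fewer, and entries under about 100 bases are not reliable.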
